A study of Mus musculus with 24 samples.

Results

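Single 100 kb bins with a high level of the DNA-damage mark gH2AX were examined at Lars2 and Limd1, at Cdk8 and Rnf6, at Cmss1 and Filip1l, and at Zc3h7a, Txndc11 and Rsl1d1. These 4 bins, called spike bins here, were taken by position from the 27268 bins of the genome. The 5 bins on each side of every spike, 40 in all, served as its flanks. The positions had been picked from the ratio of gH2AX to input in these same data, so that ratio is given as a description only. They were set beside the bin on chromosome 17 that holds Rn18s-rs5, a pseudogene of the small-subunit ribosomal RNA, called the rDNA-like bin here.

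The cells were primary mouse embryonic fibroblasts (MEFs) of C57BL6 strain, either SIRT7-KO or wild type (WT), of both sexes. All of them, WT included, had received 5 Gy of X-rays and 30 min of recovery, so no group shows the marks without irradiation. Chromatin immunoprecipitation with an antibody to gH2AX or to H2AX, and input chromatin, gave 24 libraries in 12 groups of 2. The groups were female KO, female WT, male KO and male WT for gH2AX, for H2AX and for input. The labels do not say how SIRT7 was deleted or whether cells were cultured apart for the 2 libraries of each group, so the p-values measure only the spread between these libraries, which may be technical.

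H2AX is a histone variant present throughout chromatin. Kinases phosphorylate it around DNA double-strand breaks, and the phosphorylated form, gH2AX, spreads into wide domains beside each break. SIRT7 is a NAD-dependent deacetylase that is concentrated in the nucleolus, where the ribosomal RNA genes are transcribed by RNA polymerase I. Those genes lie in tandem arrays that genome assemblies hold only in part, and sequence that occurs in several copies lets a read be placed at more than one position. How reads with several placements were handled is not given in the sources used here, and which sequences in the bins drew the reads was not analysed here.

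Total reads were 84.5 M to 212 M in gH2AX, 66.9 M to 250 M in H2AX and 92.4 M to 269 M in input libraries. The label of sex held in every library, since X reads over autosomal reads, on a log2 scale, were -4.03 to -3.99 in female and -4.93 to -4.85 in male libraries. The bin of Sirt7 itself (11:120600001-120700000) showed no loss in KO input, at 34.6 to 37.7 CPM (reads scaled to a common library size) in KO against 34.5 to 36.6 CPM in WT, and a bin of this width need not show a small deletion. The bin before it (11:120500001-120600000) did not overlap between KO and WT in any assay or sex, and it was higher in KO in input as well as in gH2AX. It had 63.3 to 65.0 CPM in KO input against 35.1 to 37.2 CPM in WT input. In H2AX it had 87.0 to 88.6 CPM in KO against 46.9 to 49.9 CPM in WT, and in gH2AX 77.4 to 81.0 CPM in KO against 42.5 to 49.2 CPM in WT. In gH2AX, both male KO libraries lay above both WT libraries in 35.6% of all bins. That share is not given here for females or the other assays.

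The Lars2 spike (mm10, 9:123400001-123500000) covered 62675 bases of the body of Lars2, the mitochondrial leucyl-tRNA synthetase, and 21340 bases of Limd1, a LIM-domain scaffold protein. The Cdk8 spike (5:146200001-146300000) held nearly all of Cdk8, the kinase of the Mediator complex, and the whole of Rnf6, a RING ubiquitin ligase. The Cmss1 spike (16:57300001-57400000) lay almost wholly in the body of Cmss1, whose yeast relative binds the small ribosomal subunit, and covered 46724 bases of Filip1l, a relative of a filamin-binding protein. The Zc3h7a spike (16:11100001-11200000) held the whole of Zc3h7a, a CCCH zinc-finger RNA-binding protein, part of Txndc11, a thioredoxin-domain protein, and 6964 bases of Rsl1d1, a nucleolar protein with a ribosomal L1 domain. In the rDNA-like bin (17:39800001-39900000) the annotation places Rn18s-rs5 at 39846354 to 39848202 and the long noncoding RNA AY036118 at 39848112 to 39898385.

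Some of the genes start inside a spike bin and some outside it. RefSeq promoter windows (GRCm38.p6, the assembly called mm10 by the UCSC browser; 250 bases before to 50 after a start) were found for 8 of the 9 genes, 13 windows in all, of which 8 lay in a spike bin. The starts of Cdk8, Rnf6 and Zc3h7a were in spike bins, as was 1 of 2 starts each of Txndc11 and Filip1l. Lars2 started in the bin before its spike, where gH2AX to input was only 0.08 (log2), Rsl1d1 in the bin after the Zc3h7a spike (0.13), and Cmss1 3 bins away from its spike (-0.02). The windows of 2 genes that start inside a spike and of 2 that start outside one are printed so that both kinds can be read side by side. Capitals mark GGGCGG, or CCGCCC on the other strand, the GC box that many promoters without a TATA box hold.
Cdk8, 5:146231000-146231299, plus strand: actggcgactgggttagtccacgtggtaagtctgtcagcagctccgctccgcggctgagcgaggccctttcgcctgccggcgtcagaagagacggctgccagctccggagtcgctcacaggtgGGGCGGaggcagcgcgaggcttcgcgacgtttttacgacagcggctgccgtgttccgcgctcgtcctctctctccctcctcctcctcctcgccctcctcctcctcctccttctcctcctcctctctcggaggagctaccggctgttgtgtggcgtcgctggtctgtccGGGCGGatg
Zc3h7a, 16:11176344-11176643, minus strand: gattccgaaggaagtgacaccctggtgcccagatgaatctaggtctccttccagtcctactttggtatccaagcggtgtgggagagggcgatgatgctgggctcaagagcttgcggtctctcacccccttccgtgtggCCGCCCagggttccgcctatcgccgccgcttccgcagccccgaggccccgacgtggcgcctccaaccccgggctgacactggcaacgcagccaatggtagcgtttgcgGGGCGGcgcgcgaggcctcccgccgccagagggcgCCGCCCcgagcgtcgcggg
Lars2, 9:123366677-123366976, plus strand: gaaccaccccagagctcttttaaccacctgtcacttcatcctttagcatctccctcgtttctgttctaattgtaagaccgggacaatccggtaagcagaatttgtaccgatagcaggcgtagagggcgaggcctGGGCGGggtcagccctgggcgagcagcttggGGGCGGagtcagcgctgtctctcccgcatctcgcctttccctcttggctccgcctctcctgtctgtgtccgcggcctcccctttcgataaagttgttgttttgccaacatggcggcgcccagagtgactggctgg
Cmss1, 16:57606818-57607117, minus strand: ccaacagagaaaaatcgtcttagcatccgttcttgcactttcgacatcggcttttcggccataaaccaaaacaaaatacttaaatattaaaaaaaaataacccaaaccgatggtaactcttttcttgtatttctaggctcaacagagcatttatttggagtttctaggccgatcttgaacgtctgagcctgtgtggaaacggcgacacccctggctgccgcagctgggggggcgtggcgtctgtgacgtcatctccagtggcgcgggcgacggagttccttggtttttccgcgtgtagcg
The GC box occurred 2 times in the Cdk8 window and 3 times in the Zc3h7a window, against 2 times in the Lars2 window, while the Cmss1 window held none in these letters. Of all 32817 windows, 35.6% held it at least once. CG pairs numbered 31 for Cdk8 and 31 for Zc3h7a, against 18 for Lars2 and 21 for Cmss1, with a median of 7 over all windows. The windows not printed had 28, 20 and 14 (Rnf6), 39 (Txndc11), 33 (Zc3h7a) and 8 (Filip1l) inside the spikes. Outside them they had 5 (Txndc11), 22 (Rsl1d1) and 32 (Filip1l), so both kinds overlapped in CG pairs. Neither Filip1l window held the GC box.

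Over all 8 gH2AX libraries, the spikes had 2.35 times (Lars2), 2.88 times (Cdk8), 3.20 times (Cmss1) and 3.24 times (Zc3h7a) the level of input. They stood at ranks 7, 6, 4 and 3 of 25703 bins. The rDNA-like bin was at rank 1 with 10.4 times the level of input. Just outside the selection lay 16:17200001-17300000 (Ube2l3, Rimbp3, Hic2, Tmem191c and Pi4ka) at rank 8 with 2.29 times, and just inside it the Lars2 spike. The bins at ranks 2 and 5 hold no protein-coding gene and were not selected. These values chose the bins and are no test.

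Each spike was 1 bin wide. The log2 ratio of gH2AX to input was -0.01 to 0.27 in the 10 flanks of the Lars2 spike, -0.16 to 0.32 beside Cdk8, -0.08 to 0.07 beside Cmss1 and 0.13 to 0.57 beside Zc3h7a, against 1.24, 1.53, 1.68 and 1.70 in the spikes. Of the 4 spikes, the Zc3h7a spike alone had 10 flanks that were all above input. H2AX did not stand out at these places. Its log2 ratio to input was 0.12 at Lars2, 0.14 at Cdk8, -0.05 at Cmss1 and 0.26 at Zc3h7a, at ranks 8476, 8015, 14910 and 4791 of 25703, and -0.26 in the rDNA-like bin.

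**Figure D1:**
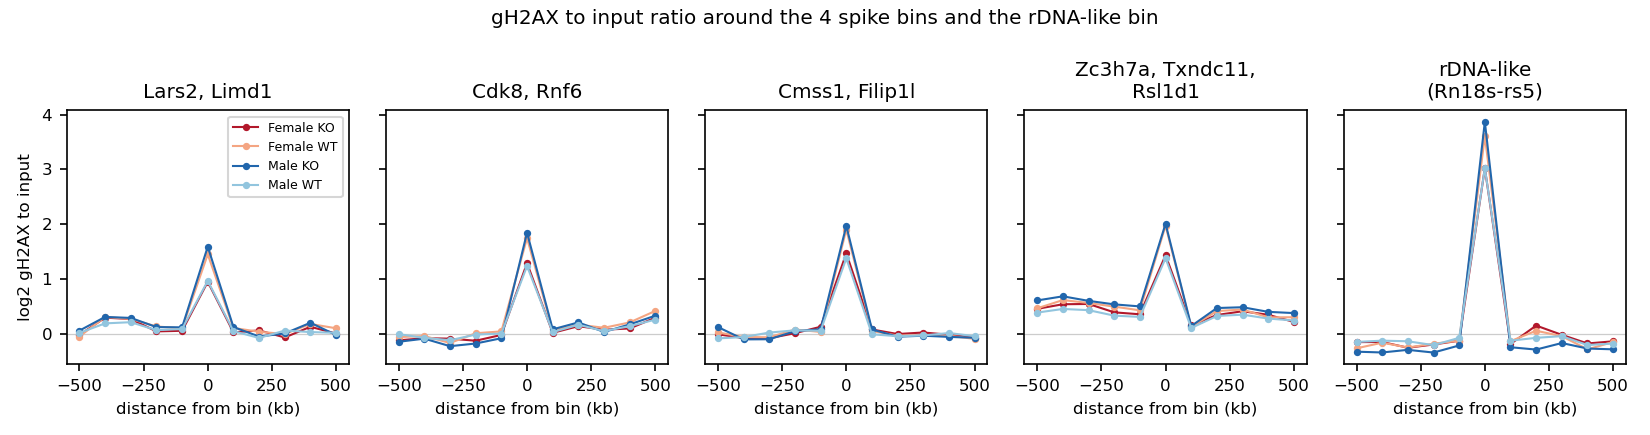
Log2 ratio of gH2AX to input (y axis) in each spike bin, the rDNA-like bin and the 5 bins on each side of them (x axis, distance in kb), with 1 line per sex and genotype group (fitted mean of 2 libraries). Every spike is a single bin; the female WT and male KO lines are the higher pair at each of them.

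The input itself was raised a little in the same 4 bins. Input reads were 1.13 to 1.22 times the mean of the 10 flanks at Lars2, 1.24 to 1.34 times at Cdk8, 1.18 to 1.31 times at Cmss1 and 1.24 to 1.30 times at Zc3h7a over the 8 input libraries. The same ratio was 2.11 to 3.31 times at Lars2, 2.77 to 4.57 times at Cdk8, 3.19 to 5.10 times at Cmss1 and 2.58 to 3.95 times at Zc3h7a in gH2AX libraries. In the rDNA-like bin it was 9.17 to 10.7 times in input and 82.4 to 171 times in gH2AX.

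The comparison of SIRT7-KO with WT asks whether loss of the deacetylase changes the damage mark at these places. In female cells gH2AX was lower in KO than in WT at all 4 spikes, and in male cells it was higher in KO than in WT at all 4. The rDNA-like bin moved in the same directions. Its change was the larger one in the reads of the whole bin, but not throughout once the flanks of each bin were subtracted. Total H2AX and input did not pass the test at any of the 4 spikes.

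The Lars2 spike had 89.7 and 86.0 CPM of gH2AX in female KO libraries, against 132 and 122 CPM in female WT libraries. In males it had 139 and 130 CPM in KO, against 88.8 and 88.0 CPM in WT. Neither pair of groups overlapped, and female KO and male WT were the low groups. The Cdk8 spike had 120 and 112 CPM in female KO, against 167 and 157 CPM in female WT. In males it had 168 and 166 CPM in KO, against 112 and 107 CPM in WT. Here too the same 2 groups were low and nothing overlapped.

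The Cmss1 spike had 137 and 131 CPM in female KO, against 199 and 183 CPM in female WT. In males it had 204 and 197 CPM in KO, against 131 and 125 CPM in WT. The Zc3h7a spike had 129 and 122 CPM in female KO, against 192 and 175 CPM in female WT. Its male libraries had 188 and 182 CPM in KO, against 124 and 116 CPM in WT. Both spikes showed the order of the first pair, with no overlap of KO and WT within a sex. Both female KO libraries lay below both WT libraries in 21.3% of all bins, and both male KO libraries lay above both WT libraries in 35.6% of all bins, so the lack of overlap on its own is common.

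The rDNA-like bin had 2280 and 2101 CPM in female KO, against 3699 and 3330 CPM in female WT, and 3823 and 3610 CPM in male KO, against 2161 and 2059 CPM in male WT. It was low and high in the same groups as the spikes. Among the spikes the order of gH2AX CPM was Cmss1, Zc3h7a, Cdk8 and Lars2 in each of the 8 libraries, all bins being of equal length. In the log2 ratio to input over all groups, Zc3h7a (1.70) stood just above Cmss1 (1.68). The steps between Cmss1 and Zc3h7a and between Zc3h7a and Cdk8 were small: the group means were 134 ± 3.89, 126 ± 4.67 and 116 ± 5.52 CPM in female KO (SD, n = 2). The Lars2 spike stood clearly under them, at 87.9 ± 2.62 CPM in female KO.

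**Figure D2:**
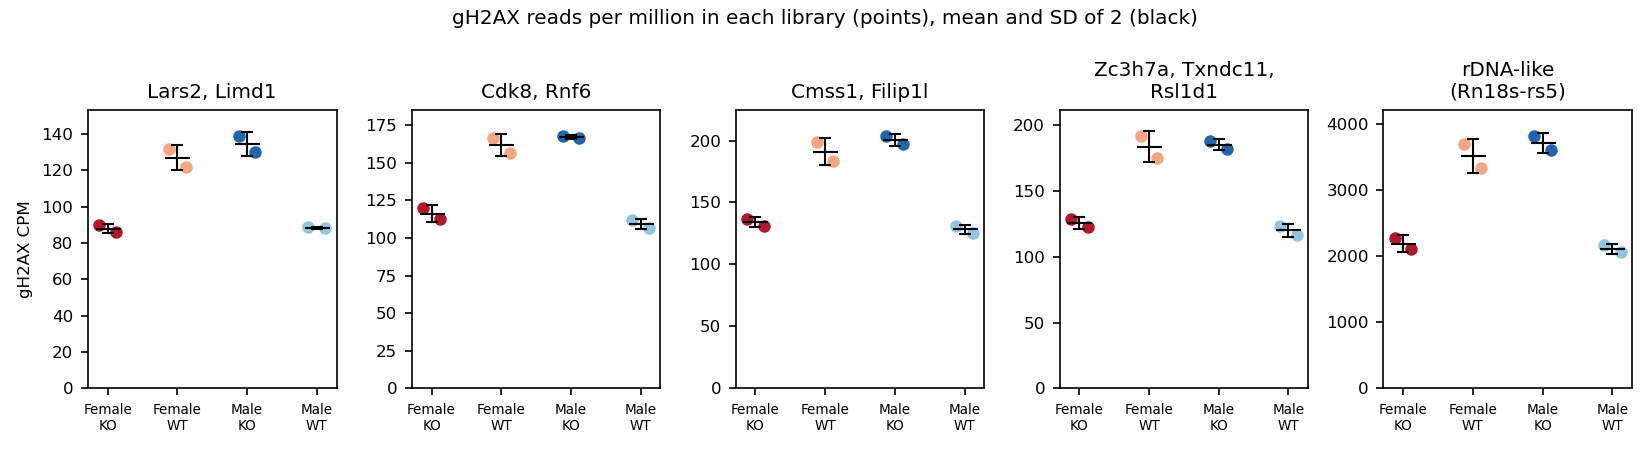
gH2AX CPM, reads scaled to a common autosomal library size (y axis, from 0) in each of the 8 libraries (points) for the 4 spike bins and the rDNA-like bin, with the mean and SD of the 2 libraries of a group in black. In all 5 panels the female KO and male WT points lie below the female WT and male KO points.

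In females the fitted log2 change, KO over WT, was -0.53 ± 0.03 at Lars2, the tRNA synthetase (SE; edgeR's quasi-likelihood test, Benjamini-Hochberg adjusted p = 3.33e-58). It was -0.47 ± 0.03 at Cdk8 (adjusted p = 1.2e-49), -0.51 ± 0.03 at Cmss1 (1.68e-59) and -0.55 ± 0.03 at Zc3h7a (4.55e-68). All 4 fell, where 0.595% of all 25702 bins were called lower. The KO level was 0.693, 0.720, 0.703 and 0.684 times the WT level at Lars2, Cdk8, Cmss1 and Zc3h7a. The rDNA-like bin fell by 0.68 on the log2 scale, to 0.623 times the WT level. Of all bins, the 4 spikes held ranks 20 to 24 by absolute change in females.

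In males the log2 change, KO over WT, was 0.60 ± 0.03 at Lars2 (adjusted p = 1.49e-77), 0.61 ± 0.03 at Cdk8 (3.49e-84), 0.64 ± 0.03 at Cmss1 (1.5e-96) and 0.62 ± 0.03 at Zc3h7a (4.16e-89). All 4 rose, where 22.4% of all bins were called higher, so a call alone says little here. The size set them apart: the median absolute change over all bins was 0.08 in males and 0.04 in females, and the spikes held ranks 7, 8, 10 and 11 of 25702. The rDNA-like bin rose by 0.82, rank 2.

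The male rise depends on how a difference between libraries in overall contrast is treated. The SD of the log2 ratio of gH2AX to input over 24027 autosomal bins was 0.192 and 0.180 in female KO, against 0.237 and 0.223 in female WT, and 0.250 and 0.242 in male KO, against 0.166 and 0.157 in male WT. The groups with the higher spikes were thus the groups with the wider contrast genome-wide, and the part of this contrast in the result was not tested beyond the following. When a linear trend of each library on the gH2AX to input ratio was removed, a setting added after seeing the data that has to be extrapolated to bins this far from the others, the male change was 0.08 at Lars2 (adjusted p = 0.303), -0.04 at Cdk8 (0.613), -0.08 at Cmss1 (0.302) and -0.10 at Zc3h7a (0.139). The rDNA-like bin was then called in the opposite direction, at -0.65 (adjusted p = 1.71e-15). The female falls stayed called at -0.33, -0.23, -0.24 and -0.27 at Lars2, Cdk8, Cmss1 and Zc3h7a, while that of the rDNA-like bin, -0.13, did not (adjusted p = 0.383).

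The KO effect itself differed between the female and the male libraries. The female minus the male log2 change was -1.13 ± 0.05 at Lars2 (adjusted p = 9.89e-136), -1.09 ± 0.04 at Cdk8 (2.21e-132), -1.15 ± 0.04 at Cmss1 (1.46e-154) and -1.17 ± 0.04 at Zc3h7a (4.41e-157), all 4 called, where 20.4% of all bins were called lower. The rDNA-like bin had -1.5 ± 0.04, rank 1, and the spikes held ranks 8, 13, 6 and 4 for Lars2, Cdk8, Cmss1 and Zc3h7a. With the linear trend removed, the difference stayed called at Lars2 alone (-0.41, adjusted p = 1.09e-06), and was -0.19 at Cdk8 (0.0678), -0.16 at Cmss1 (0.138), -0.17 at Zc3h7a (0.11). In the rDNA-like bin it was called in the opposite direction, at 0.52 (adjusted p = 1.88e-08).

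The female and male WT libraries also differed from each other. Whether sex itself, the cultures or the immunoprecipitations lay behind this was not tested. In WT cells the female over male log2 change of gH2AX was 0.52 at Lars2, 0.56 at Cdk8, 0.57 at Cmss1 and 0.61 at Zc3h7a, each with an SE of 0.03, and 0.74 ± 0.02 in the rDNA-like bin. All 4 spikes were called, where 17.6% of all bins, the X chromosome included, were called higher. With the linear trend removed they were 0.16, 0.12, 0.08 (adjusted p = 0.209) and 0.12 at Lars2, Cdk8, Cmss1 and Zc3h7a, and -0.26 in the rDNA-like bin, called in the opposite direction (adjusted p = 1.53e-06). This contrast uses the WT libraries of both KO comparisons and is not independent of them.

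**Figure D3:**
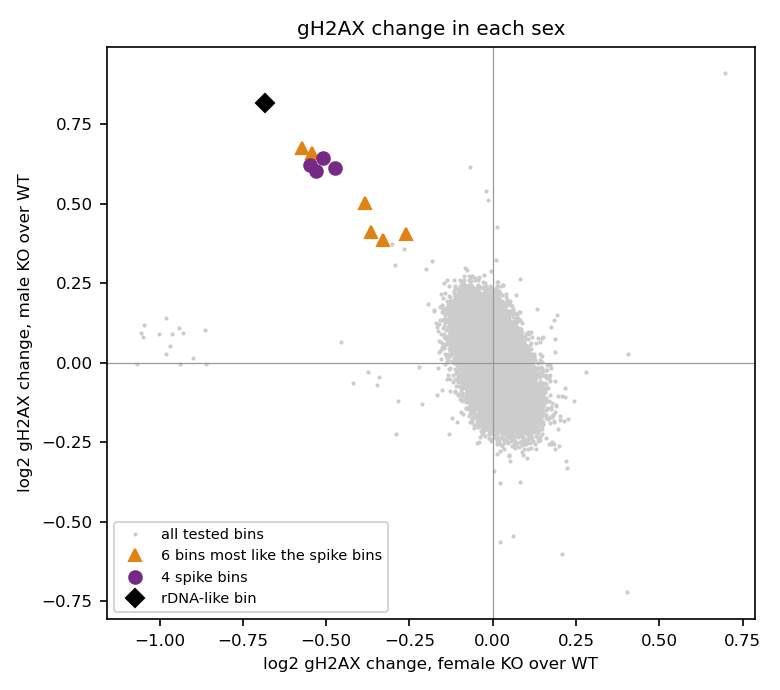
Log2 gH2AX change, KO over WT, in females (x axis) and in males (y axis) for all tested 100 kb bins (grey), the 4 spike bins, the rDNA-like bin and the 6 bins whose gH2AX profile over the 8 libraries is most like the spikes. The spikes lie at -0.55 to -0.47 in females and 0.60 to 0.64 in males, between the rDNA-like bin and the main cloud.

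The changes in the flanks were smaller. In females 0 of the 40 flanks were called by edgeR, where 1.01% of all bins were, with changes of -0.11 to 0.06 and a median of -0.03; 3 of them had an unadjusted p under 0.05. DESeq2 also called 0, with no adjusted p for 32 of the 40. In males 13 flanks rose and 6 fell (44.7% of all bins were called), with changes of -0.18 to 0.26, all smaller than those of the spikes. Of the 13 that rose, 9 flank the Zc3h7a spike, the largest being 16:10700001-10800000 (0.26 ± 0.03), 16:10600001-10700000 (0.25 ± 0.03) and 16:10900001-11000000 (0.19 ± 0.03). The 5 bins before the Cdk8 spike fell, most of all 5:146000001-146100000 (-0.18 ± 0.04). The log2 ratio of gH2AX to input was 0.13 to 0.57 in the Zc3h7a flanks and -0.16 to -0.02 in those 5 bins. The part of the wider contrast of the male KO libraries in these changes was not tested.

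A measure that needs no library scaling gave the same directions. It does not remove the difference between libraries in overall contrast, and the linear trend was not removed from it. The local excess, the log2 ratio of a bin to the mean of its 10 flanks in the same library, was lower in female KO than in female WT by -0.49 ± 0.04 at Lars2, -0.44 ± 0.04 at Cdk8, -0.51 ± 0.04 at Cmss1 and -0.52 ± 0.04 at Zc3h7a (limma, adjusted p = 6.3e-14, 1.54e-12, 8.45e-15 and 2.75e-15), where 0.154% of 25366 bins were called lower. In males it was 0.56 ± 0.04, 0.68 ± 0.04, 0.63 ± 0.04 and 0.46 ± 0.04 at the same 4 bins (adjusted p = 1.22e-16, 1.64e-20, 9.75e-19 and 3.54e-13), where 2.31% of bins were called higher. The local excess of the rDNA-like bin changed by -0.72 in females and 0.97 in males. The sex difference of the effect was -1.05 at Lars2, -1.12 at Cdk8, -1.14 at Cmss1 and -0.98 at Zc3h7a, all 4 called, where 1.76% of bins were called lower.

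No change of total H2AX was called at the spikes. In H2AX libraries the Lars2 spike ranged over 48.5 to 50.9 CPM, the Cdk8 spike over 49.2 to 53.0 CPM, the Cmss1 spike over 47.3 to 49.4 CPM and the Zc3h7a spike over 53.3 to 57.8 CPM. The log2 change, KO over WT, was -0.01 to 0.00 in females and -0.04 to 0.04 in males, each with an SE of 0.03. edgeR called 0 of the 4 in either sex, where 0.152% of all bins were called in females and 0.191% in males; 0 had an unadjusted p under 0.05, and DESeq2 called 0. In the rDNA-like bin H2AX was 218 ± 0.919 CPM in female KO, against 265 ± 1.2 CPM in female WT (log2 change -0.28 ± 0.03, adjusted p = 5.15e-10), and 197 ± 2.4 CPM in male KO, against 223 ± 2.69 CPM in male WT (-0.18 ± 0.03, adjusted p = 0.00047; SD, n = 2).

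Input DNA over the spikes ranged over 44.6 to 47.4 CPM at Lars2, 46.0 to 49.1 CPM at Cdk8, 47.2 to 52.4 CPM at Cmss1 and 45.4 to 48.1 CPM at Zc3h7a. edgeR called 0 of the 4 in either sex, where 0.183% of all bins were called in females and 0.222% in males, and so did DESeq2. Cmss1 in females alone had an unadjusted p under 0.05 (log2 change -0.07 ± 0.03, adjusted p = 0.524). The rDNA-like bin fell a little in female KO input, to 271 ± 5.09 CPM against 290 ± 3.18 CPM in female WT (-0.10 ± 0.02, adjusted p = 0.000735; SD, n = 2).

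**Figure D4:**
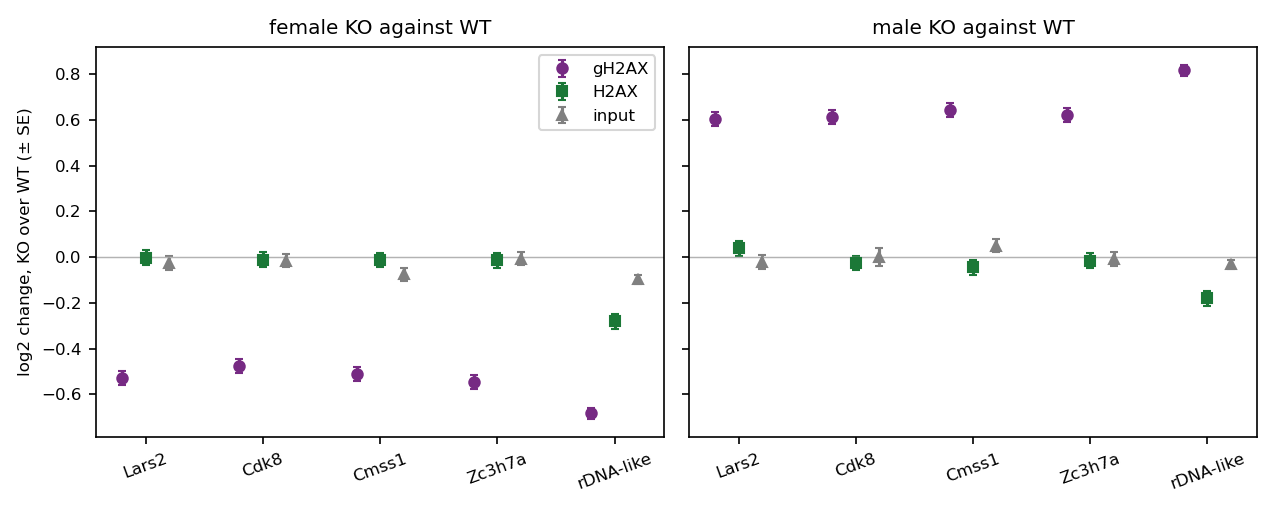
Log2 change, KO over WT, with its SE (y axis) in gH2AX, H2AX and input for the 4 spike bins and the rDNA-like bin, in females (left) and males (right). At the spikes gH2AX lies near -0.5 in females and near 0.6 in males, while H2AX and input lie near 0; in the rDNA-like bin H2AX is also below 0.

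The change of each spike was then tested against that of the rDNA-like bin, by counting reads relative to the reads of that bin. On this scale the median of all bins shifts to 0.68 in females and -0.82 in males, and 25694 of 25701 bins in females and 25698 of 25701 in males are called (100% when rounded), so a bin that is not called is the exception. In females the change was 0.15 ± 0.08 at Lars2 (adjusted p = 0.0583), 0.21 ± 0.08 at Cdk8 (0.0109), 0.17 ± 0.08 at Cmss1 (0.0334) and 0.13 ± 0.08 at Zc3h7a (0.0979). Lars2 and Zc3h7a were thus among the 7 bins not called. In the reads of the whole bin, the fall was therefore called smaller than that of the rDNA-like bin at Cdk8 and Cmss1 only. In females 1 of the 4 was called with limma on the log2 ratio, and 4 with the replicate number in the model. Because nearly all bins were called, the adjustment left the p-values of the spikes unchanged to the digits shown in both sexes. They therefore act as unadjusted p-values, and the 4 tests share the reads of the rDNA-like bin. In males the change was -0.21 ± 0.08 at Lars2 (adjusted p = 0.00842), -0.20 ± 0.08 at Cdk8 (0.0125), -0.17 ± 0.08 at Cmss1 (0.0356) and -0.19 ± 0.08 at Zc3h7a (0.0185). The rise in the reads of the whole bin was thus called smaller than that of the rDNA-like bin at all 4. These reads include the signal of the surroundings: with the mean of the flanks subtracted, the male log2 ratio was 0.85 to 0.96 at the spikes and 0.83 in the rDNA-like bin, a difference that was not tested. Leaving out 1 library at a time left 1 to 3 of the 4 called in females and 0 to 4 in males. In females 1 was called without the second KO library, without the first WT library or without any 1 of the 4 male libraries. In males 1 was called without either KO library or without the first WT library, and 0 without the second WT library. The sex difference on this scale was 0.36 ± 0.11, 0.41 ± 0.11, 0.34 ± 0.11 and 0.32 ± 0.11 at Lars2, Cdk8, Cmss1 and Zc3h7a, all 4 called, as were 25700 of 25701 bins (100% when rounded; adjusted p = 0.00137, 0.000362, 0.00279 and 0.00458).

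A spike bin holds the signal of its surroundings beside its own excess, so the excess was also taken by subtraction: the CPM of the bin minus the mean CPM of its 10 flanks, a measure chosen after seeing the data. At Cmss1 this excess was 97.3 and 91.7 CPM in female KO, against 159 and 144 CPM in female WT, and 164 and 157 CPM in male KO, against 91.4 and 86.1 CPM in male WT. Divided by the CPM of the rDNA-like bin of the same library, it was 4.27% and 4.37% in female KO, against 4.30% and 4.32% in female WT, and 4.29% and 4.36% in male KO, against 4.23% and 4.18% in male WT. The groups that differed 1.91 times in the excess between the lowest and the highest library thus differed 1.04 times in this share. KO and WT overlapped in females.

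Over the 8 gH2AX libraries the share was 2.33% ± 0.145 at Lars2, 3.49% ± 0.106 at Cdk8, 4.29% ± 0.0617 at Cmss1 and 3.64% ± 0.142 at Zc3h7a (SD, n = 8). Its highest value was 1.19, 1.09, 1.04 and 1.12 times its lowest at Lars2, Cdk8, Cmss1 and Zc3h7a, against 2.14, 1.92, 1.91 and 2.01 times for the excess itself. The log2 ratio of the mean excess, KO over WT, was -0.85 at Lars2, -0.65 at Cdk8, -0.68 at Cmss1 and -0.79 at Zc3h7a in females, beside -0.69 for the rDNA-like bin, so Lars2 and Zc3h7a lay below that bin. In males it was 0.96, 0.88, 0.86 and 0.85 at the same 4 bins, beside 0.83 for the rDNA-like bin, so all 4 lay above that bin, the reverse of the order in the reads of the whole bin. The share moved most at Lars2, with 2.15% ± 0.0129 in female KO against 2.41% ± 0.00952 in female WT, and 2.49% ± 0.0733 in male KO against 2.26% ± 0.0424 in male WT (SD, n = 2). An exact two-sided permutation test of 2 against 2 libraries cannot go below p = 0.333, and no other test of the share was run. The KO and WT libraries overlapped in the share at Cmss1 in females and at Zc3h7a in males, and did not overlap at the other spikes and sexes. How many of all bins lack overlap on this measure was not computed, so the lack of overlap is a description only. At Zc3h7a in females the share was 3.58% ± 0.00493 in KO against 3.86% ± 0.033 in WT. In input the shares were 1.95% to 2.98% at Lars2, 3.35% to 4.45% at Cdk8, 2.63% to 4.84% at Cmss1 and 3.43% to 4.07% at Zc3h7a. Those of H2AX were 1.48% to 2.69%, 1.57% to 3.74%, 4.03% to 5.77% and 1.79% to 3.56% at the same 4 bins. In H2AX and input the share of a spike varied more between libraries than in gH2AX. The excess was also far smaller there: at Lars2 it was 3.28 to 6.08 CPM in H2AX and 5.05 to 8.58 CPM in input, against 45.3 to 97.1 CPM in gH2AX. A share of so small an excess moves more with noise in the counts, so the spreads are not directly comparable.

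**Figure D5:**
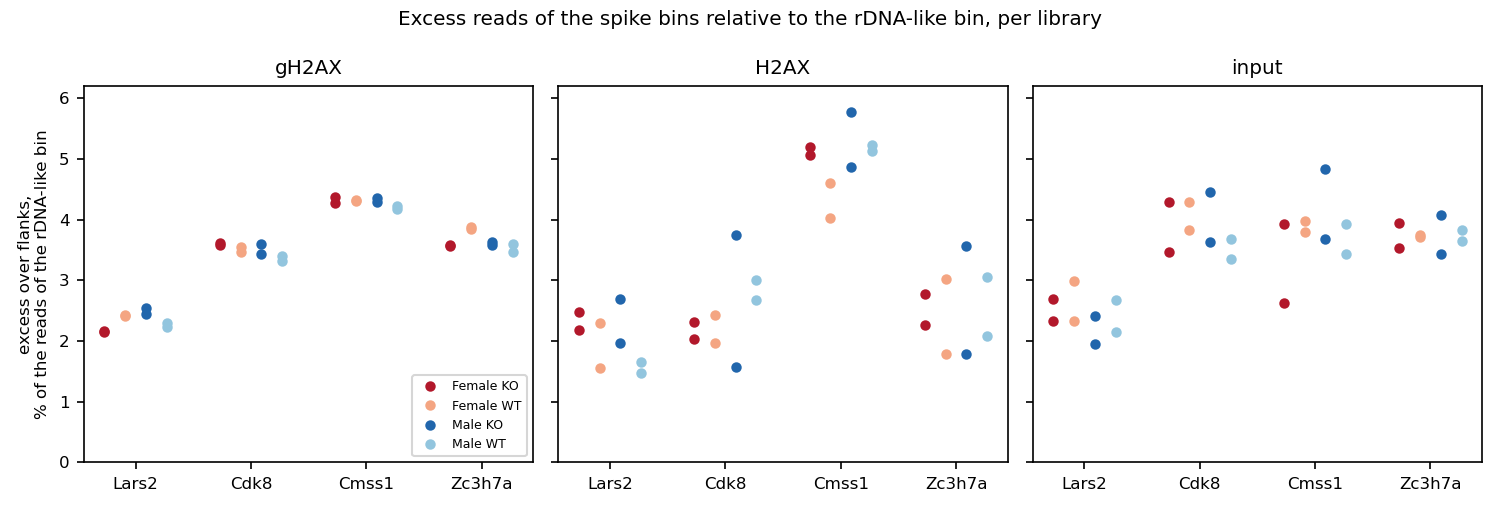
Excess CPM over the mean of the 10 flanks as a percentage of the CPM of the rDNA-like bin of the same library (y axis, from 0), for the 4 spike bins in gH2AX, H2AX and input, with 1 point per library coloured by group. In gH2AX the 8 points of a spike lie close together (4.18% to 4.37% at Cmss1), while in H2AX and input they are more scattered, and the H2AX shares lie mostly lower at Cdk8 and Zc3h7a and mostly higher at Cmss1 than those of gH2AX.

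Other bins were ranked by how near their profile over the 8 gH2AX libraries came to that of the spikes. The 6 with the smallest Euclidean distance to the mean of the spikes, in centred log2 CPM, were 3:5800001-5900000 (no gene; distance 0.0753), 11:109000001-109100000 (Gm36876, a long noncoding RNA, and Gm24149, an snRNA; 0.0848), 16:17200001-17300000 (Ube2l3, Rimbp3, Hic2, Tmem191c and Pi4ka; 0.187), 1:100100001-100200000 (Cntnap5b; 0.256), 12:78300001-78400000 (Gphn; 0.305) and 13:44800001-44900000 (Jarid2; 0.341). They were chosen for this likeness, so their changes are a description. The first 2 changed by -0.54 and -0.57 in females and by 0.66 and 0.68 in males, about as far as the spikes, and the other 4 by less. At the Hic2 bin the changes were -0.38 in females and 0.50 in males, and at the Jarid2 bin -0.26 and 0.41. The 2 bins that close the list of the 10 highest in gH2AX lie below every spike in that ratio. Of these, 6:114500001-114600000 (1.88 times input, rank 9; H2AX at rank 53) changed by -0.03 in females and 0.17 in males. At 7:90400001-90500000 (1.87 times, rank 10; H2AX at rank 1) gH2AX changed by 0.19 in females and 0.08 in males, while its input changed by -0.28 and 0.27 and its H2AX by -0.36 and 0.61 in females and males.

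Relatives of the genes in the spikes were looked up in their own bins. The 16 bins of the other mitochondrial aminoacyl-tRNA synthetases had log2 gH2AX to input ratios of -0.07 to 0.57. In female KO 0 were called by edgeR and 0 by DESeq2, which gave no adjusted p for 9, and 1 was higher and 1 lower at an unadjusted p under 0.05. In male KO 12 rose, with Pars2, the mitochondrial prolyl-tRNA synthetase, the largest at 0.17 and a list median of 0.11. The 6 bins of the rest of the Mediator kinase module had ratios of -0.08 to 0.24; in females 0 were called by edgeR and 0 by DESeq2, which gave no adjusted p for 5 (2 were higher at an unadjusted p under 0.05), and in males 3 rose, Cdk19, the paralogue of Cdk8, by 0.15 and Med12 by 0.13 among them. The 17 bins of ribosome assembly and nucleolar proteins include a flank of the Cmss1 spike, 16:57400001-57500000, since Cmss1 was counted there. Of the 17, 0 were called in females by edgeR and 0 by DESeq2, which gave no adjusted p for 13 (3 were lower at an unadjusted p under 0.05). In males 9 rose, that flank (0.12), Bop1, a factor of large-subunit assembly, by 0.16 and Ncl, nucleolin, by 0.15 among them, with a median of 0.08. Of the 12 bins of RNA polymerase I transcription, 0 were called in females by edgeR and 0 by DESeq2, which gave no adjusted p for 8 (3 were lower at an unadjusted p under 0.05), and 7 rose in males, Taf1b, part of the promoter selectivity factor, by 0.16 and Polr1e, a polymerase subunit, by 0.14 among them. In none of the 4 lists was a bin called lower in males, by edgeR, by DESeq2 or at an unadjusted p under 0.05. Over all bins 1.01% were called in females, so 0 in lists this short is near that share. In males 22.4% of all bins were called higher and the median change was -0.01. Outside the spikes the median log2 ratio of gH2AX to input was 0.24, 0.20, 0.25 and 0.28 in the 4 lists, in the order above. The male KO libraries had the wider contrast genome-wide, and its part in the male counts of these lists was not tested. The largest change in these lists outside the spikes, 0.17, was under the 0.60 to 0.64 of the spikes.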

How the data were processed

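The authors deposited unnormalised counts of reads in each 100 kb window of mm10; 24 further columns matched no labelled sample and were not used. Per the submitters' processing notes, Trimmomatic 0.36, Bowtie2 2.2.9, SAMtools 0.1.19 and deepTools 2.4.2 were among the tools. The treatment of duplicates and of reads with several placements is not given in the sources used here. For the KO and sex comparisons, gH2AX, H2AX and input were each modelled alone with edgeR 4.0.16 (R 4.3.3) over 8 libraries and 4 group means. Of 26350 autosomal and X bins, filterByExpr kept 25702 for gH2AX and 25703 each for H2AX and input. TMM factors came from autosomal bins, with quasi-likelihood F tests and Benjamini-Hochberg adjustment over all tested bins (threshold 0.05). Fitted ratios of gH2AX or H2AX to input, and the ranks by them, came from 1 further edgeR fit over all 24 libraries. CPM are counts scaled to TMM-normalised autosomal library sizes. Local excess was tested with limma 3.58.1 (0.5 reads added). For the change relative to the rDNA-like bin, library size was set to the reads of that bin. DESeq2 1.42.0 and other settings served as alternatives. The scripts were tested on simulated counts. Replicates of a group differed by more than sampling noise (chi-square per degree of freedom 2.59 to 3.87). Bins and gene lists were chosen with earlier results of these data known. Named were the spikes, the rDNA-like bin, up to 3 called flanks per spike with the largest change, the 10 bins highest in gH2AX to input, the 6 most alike, and at most 3 genes per list. A comparison of the bins with the sequence of ribosomal RNA had been planned and was not analysed here.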

Additional observations from a re-analysis of the deposited data

Results flagged for a closer look

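The KO effect on gH2AX, as female minus male log2 change, differed between the sexes by its own test in each of the following. It was -1.13 at Lars2, -1.09 at Cdk8, -1.15 at Cmss1, -1.17 at Zc3h7a and -1.5 in the rDNA-like bin. For the local excess over the 10 flanks it was -1.05 at Lars2, -1.12 at Cdk8, -1.14 at Cmss1, -0.98 at Zc3h7a and -1.69 in the rDNA-like bin. With the linear trend on enrichment removed, the gH2AX difference was no longer called at Cdk8 (adjusted p = 0.0678), Cmss1 (0.138) and Zc3h7a (0.11), and it was called in the opposite direction in the rDNA-like bin (0.52, adjusted p = 1.88e-08).

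Relative to the reads of the rDNA-like bin the same difference was 0.36 at Lars2, 0.41 at Cdk8, 0.34 at Cmss1 and 0.32 at Zc3h7a, in the reads of the whole bin, flanking signal included.

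Among the other bins named, the difference was -1.25 at 11:109000001-109100000, -1.20 at 3:5800001-5900000, -0.89 at 16:17200001-17300000, -0.78 at 1:100100001-100200000, -0.71 at 12:78300001-78400000 and -0.66 at 13:44800001-44900000. It was -0.21 at 6:114500001-114600000 and, in the other direction, 0.11 at 7:90400001-90500000.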

How the results depend on the processing

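Of 1364 values under alternatives for 113 results, 1271 kept their side of the threshold or, for counts and shares, moved little. A change of sign was counted among these where neither value was called. The calls of all 4 spikes in gH2AX (female, male and sex difference) and in local excess held under every other setting tried apart from the one below, and H2AX and input stayed at 0 called spikes in each (edgeR, limma or DESeq2).

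With the linear trend on enrichment removed, a setting added after seeing the data, 0 of 4 spikes stayed called in males and 1 in the sex difference. The male change was then -0.0405 at Cdk8, -0.0756 at Cmss1, -0.10 at Zc3h7a and -0.65 in the rDNA-like bin, whose sex difference was 0.52 and whose WT contrast of female to male was -0.26. Over all bins this setting called 54 in females, 237 in males, 207 for the sex difference and 1996 between the sexes in WT. The cause was not tested, and this setting was not applied to the local excess.

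Counts over all bins moved by over 1.5 times under these settings, while the spikes kept their calls. DESeq2 called 109 bins for gH2AX in females, 31 for H2AX in males, 46 for the H2AX sex difference and 31 for input in males. With the input change subtracted, gH2AX had 114 in females, 5320 in males, 6238 for the sex difference and 2061 between WT sexes; with the H2AX change subtracted, 45, 7121, 6586 and 2813 in the same order. Local excess called 642 in males and 504 for the sex difference with 3 flanks on each side, and 1980 and 1418 without the adjacent bins.

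Leaving out 1 library at a time gave 76 to 324 bins for gH2AX in females, 7004 to 11857 in males, 7710 to 9569 for the sex difference and 3568 to 6408 between WT sexes. It gave 26 to 328 for H2AX in males, 51 to 237 for its sex difference and 37 to 69 for input in males. Local excess had 59 to 146 in females, 228 to 1608 in males and 370 to 1141 for the sex difference. Relative to the rDNA-like bin, 1 to 3 spikes were called in females and 0 to 4 in males.

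Over all bins, correlations of same-numbered deviations were 0.0188 to 0.0633 in gH2AX and -0.025 to 0.041 in H2AX and input, none of 6 per assay over 0.1. At every spike and in the rDNA-like bin, however, replicate 1 had more gH2AX CPM than replicate 2 in each group. The correlations therefore do not show that the replicate number is without meaning at these bins, and the reason was not tested. With a replicate block, the SE of the female change in the rDNA-like bin was 0.014, against 0.0248 without it. The replicate block changed the calls of the spikes in 1 comparison, relative to the rDNA-like bin in females, where 4 were called (Lars2 0.15, adjusted p = 3.52e-05; Zc3h7a 0.13, adjusted p = 0.00015), against 1 with limma on the log2 ratio.

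With 2 libraries per group and bins of 100 kb, the place of the reads within a spike is not resolved. All cells were irradiated, so the part of the X-rays is not shown.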
